A study of Homo sapiens with 12 samples.

Results

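The genes described here encode the proteins of the cytosolic ribosome. They were taken by symbol (RPL or RPS followed by a number and an optional A or X, RPLP0 to RPLP2, and RPSA) and kept only where annotated as protein-coding, so that pseudogenes, the RPS6K kinases and the mitochondrial ribosomal proteins stayed out. The rule found 77 genes among 61541 gene identifiers, 46 of the large subunit and 31 of the small subunit, and all 77 passed the filter on low counts that left 12329 genes. FAU, which encodes a ribosomal protein fused to a ubiquitin-like protein, and RACK1, a protein bound to the small subunit, lie outside the rule and are given separately.

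Polyadenylated RNA came from IMR90 cells, a human lung fibroblast line, in 12 libraries. All cells received doxorubicin, a DNA-intercalating topoisomerase II poison, for 24 h and were then kept in culture for at least 8 days. The 4 groups of 3 libraries were cells on plastic given 100 nM, cells on a 2 kPa gel given 100 nM, cells on plastic given 250 nM, and cells on the gel given 250 nM. Sample titles give the dose in nM whereas the treatment protocol gives it in µM, and the gel is called a hydrogel in the design and PDMS in the growth protocol. No untreated library was analysed here, so each comparison is between treated cells. Nothing in the labels says that replicates were separate cultures, so the p-values measure only the spread between these libraries, which may be technical.

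Ribosomal proteins are made in near-equal amounts and assemble with ribosomal RNA in the nucleolus. Their messenger RNAs are among the most abundant in growing cells. Most begin with a C followed by a run of pyrimidines, the 5′ terminal oligopyrimidine (TOP) tract, through which mTOR signalling and the protein LARP1 control their translation and stability. Some members also act outside the ribosome: RPL5 and RPL11, bound to 5S ribosomal RNA, inhibit MDM2 and so raise p53 when ribosome assembly fails, a pathway relevant to fibroblasts exposed to a DNA-damaging drug.

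Start sites from RefSeq (GRCh38.p14) show this signature, and are given for the members that were higher at 250 nM on both substrates. Each line is 15 bases before and 15 bases from the annotated transcript start, 5′ to 3′ on the transcribed strand, with the longest run of C and T that overlaps positions -5 to +10 in capitals.
RPL26 (chr17:8383179-8383208, minus strand): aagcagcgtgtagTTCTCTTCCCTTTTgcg
RPL35 (chr9:124861943-124861972, minus strand): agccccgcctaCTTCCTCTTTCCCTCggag
RPS27A (chr2:55232673-55232702, plus strand): tgcgcggcgTTCTTCCTTTTCgatccgcca
RPL13A (chr19:49487593-49487622, plus strand): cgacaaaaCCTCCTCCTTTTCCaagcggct
RPS3A (chr4:151099613-151099642, plus strand): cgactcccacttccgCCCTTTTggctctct
RPL9 (chr4:39458908-39458937, minus strand): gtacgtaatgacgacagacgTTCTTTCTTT
RPS4X (chrX:72277234-72277263, minus strand): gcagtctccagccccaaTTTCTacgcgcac
Of these 7 genes, 5 start with a C followed by at least 4 pyrimidines. RPL9 and RPS4X do not at the start listed, although RPL9 has a run of 10 pyrimidines from position +6.

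The second set shows members of the 5S complex, the stalk and the tunnel exit, the signalling target RPS6, and a member that varied little (RPL7A) and one that was high in a single library (RPS29).
RPL11 (chr1:23691791-23691820, plus strand): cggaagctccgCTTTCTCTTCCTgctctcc
RPLP0 (chr12:120201097-120201126, minus strand): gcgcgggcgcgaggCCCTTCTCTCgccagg
RPLP1 (chr15:69452803-69452832, plus strand): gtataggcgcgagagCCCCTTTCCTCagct
RPLP2 (chr11:809952-809981, plus strand): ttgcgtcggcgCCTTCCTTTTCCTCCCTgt
RPL39 (chrX:119791616-119791645, minus strand): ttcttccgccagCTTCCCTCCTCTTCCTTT
RPS6 (chr9:19380222-19380251, minus strand): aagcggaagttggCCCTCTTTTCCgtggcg
RPL7A (chr9:133348203-133348232, plus strand): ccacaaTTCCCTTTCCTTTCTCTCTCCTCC
RPS29 (chr14:49598696-49598725, minus strand): ccccgagcgcgcagCTggcagcggtggttg
RPL7A had the longest run of any matched member, 25 bases, whereas RPS29 had a run of 2 at the listed start. Of the 62 members matched in the RefSeq table, 46 (74.2%) had the C start followed by at least 4 pyrimidines, counting a gene as positive if any of its listed starts was. Per start, which is the unit of the whole table, the share was 46 of 77 member starts (59.7%) against 4.1% of all 35116. A run of at least 7 pyrimidines was present in 54 matched members (87.1%) and 57 of their 77 starts (74.0%), against 17.9% of all starts, and the median run was 11.5 bases in members and 4 in all promoters.

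Upstream sequence is shown for RPL26 and RPS4X as the 120 bases that end just before the start, because they are among the members with the largest dose differences. Capitals mark the ETS-type motif CCGGAAG in RPL26 and the Sp1-type motif GGGCGG in RPS4X.
RPL26 (chr17:8383194-8383313, minus strand): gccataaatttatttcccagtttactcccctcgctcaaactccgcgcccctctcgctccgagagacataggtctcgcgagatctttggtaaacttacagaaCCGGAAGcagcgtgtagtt
RPS4X (chrX:72277249-72277368, minus strand): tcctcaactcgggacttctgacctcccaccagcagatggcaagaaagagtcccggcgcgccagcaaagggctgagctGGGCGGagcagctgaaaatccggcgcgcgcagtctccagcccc
Over both strands and 250 bases before to 50 after the start, CCGGAAG was found in 26 of the 77 starts of matched members (33.8%) and in 10.3% of all starts. GGGCGG was found in 42 (54.5%) and 45.0%, the YY1-type AAGATGG in 8 (10.4%) and 5.8%, and TATAAA in 5 (6.5%) and 11.5%. Each match describes the letters only, and some promoters hold more than one motif.

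Library totals were 5887056 to 7351916 expected counts at 100 nM and 2229069 to 2730309 at 250 nM, with no overlap. File names of the 250 nM libraries carry the term UMI, a molecular identifier that allows copies of a molecule to be counted once, and no source used here says if that was done. Counts of abundant genes, such as these, may therefore not mean the same at each dose, and dose and library set cannot be told apart. A pair of libraries stood apart from the rest in make-up. Plastic 100 nM replicate 1 and gel 250 nM replicate 1 held 14.3% and 13.2% of counts in loci that resemble ribosomal DNA, against 24.2% to 30.7% in the other libraries, and gel 250 nM replicate 1 had 8.11% mitochondrial counts among protein-coding counts against 2.58% to 5.12% elsewhere. Main counts without them are given beside the result, as are several called values that change. All 12 fibroblast markers passed the filter (summed level 9905 to 15048 CPM, that is, counts after TMM scaling of the library total), against 3 of 7 epithelial markers (42.4 to 221 CPM, led by KRT18), 1 of 6 endothelial markers (7.25 to 37.9 CPM) and 0 of 7 leukocyte markers (0 to 3.3 CPM). In bulk RNA, fewer cells of a type and less RNA per cell cannot be told apart.

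The 77 genes together made up between 6.1% and 10.67% of the protein-coding counts of a library. On plastic at 100 nM the shares were 7.99%, 7.79% and 6.35% in replicates 1 to 3 (mean 7.38% ± 0.895, SD, n = 3), and on gel at 100 nM they were 6.1%, 6.72% and 6.3% (6.37% ± 0.316). On plastic at 250 nM they were 7.49%, 8.49% and 8.6% (8.19% ± 0.612), and on gel at 250 nM 10.67%, 8.64% and 8.66% (9.32% ± 1.17). Both gel groups were separate from each other, with every 250 nM library above every 100 nM library, whereas the doses overlapped on plastic. Gel and plastic overlapped at 100 nM and were barely separate at 250 nM, where the highest plastic library had 8.6% and the lowest gel library 8.64%. Without gel 250 nM replicate 1, the gel 250 nM mean was 8.65% (n = 2), still above all gel 100 nM libraries. The 95% Wilson interval of the 8.64% share is 8.59% to 8.68%, which covers counting error only.

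**Figure D1:**
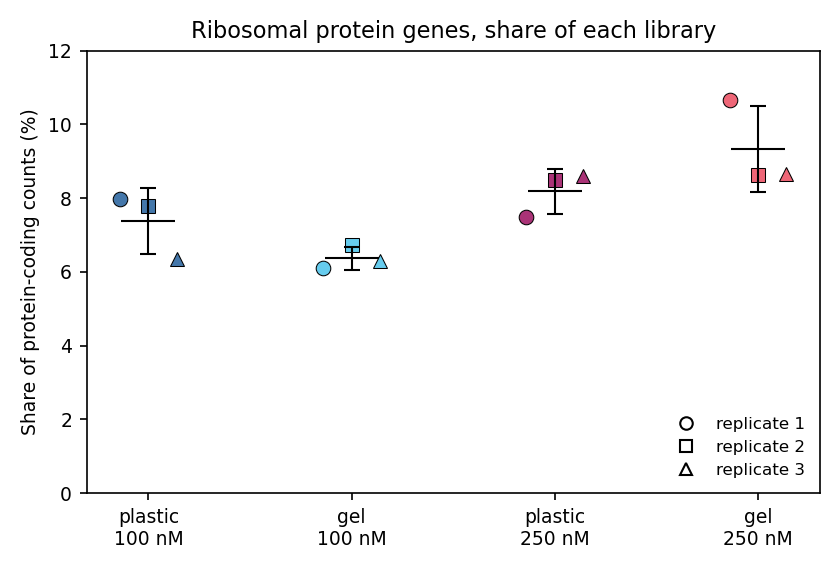
Share of protein-coding expected counts held by the 77 ribosomal protein genes (vertical axis, percent) in each of 12 libraries, by substrate and dose; symbols mark replicate number, and bars the group mean and SD. Gel libraries at 250 nM sit between 8.64% and 10.67% and gel libraries at 100 nM between 6.1% and 6.72%.

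Levels between members are compared per transcript length, as the deposited TPM values. RPL37A, a zinc-binding protein of the large subunit, had the highest mean over the 12 libraries at 6770 TPM, followed by RPL9, near the base of the stalk, at 5141 TPM and RPS12, a small subunit head protein, at 4427 TPM. RPS26, which contacts messenger RNA at the exit channel, had the lowest level at 131 TPM, then RPL29 at 199 TPM and RPS9 at 246 TPM. Their ranges did not overlap with those of the highest: RPL37A ran from 3305 to 14126 TPM and RPS9 from 152 to 703 TPM. The top 3 overlapped among themselves, with RPL9 from 2463 to 9142 TPM and RPS12 from 2388 to 10835 TPM. The order was not the same at each dose. Group means of RPL41 (4820 TPM on plastic, 3302 on gel) lay above those of RPL9 (3137 and 3033) at 100 nM. On plastic at 100 nM RPS29 had a mean of 6497 TPM against 6030 for RPL37A, but only through replicate 1. Replicates 1 to 3 had 13135, 3775 and 2580 TPM for RPS29 and 8532, 5462 and 4097 TPM for RPL37A. Protein levels were not measured.

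Dose on the gel gave the clearest difference in these genes. At 250 nM against 100 nM, 32 of 77 members were higher and 0 lower at an adjusted p under 0.05 by edgeR (41.6% of members; 6.91% of all 12329 genes were called higher, 6.9% lower and 13.8% in either direction). The median log2 fold change was 0.58 over members and -0.02 over all genes tested, and 72 members had a positive value. In 58 members (75.3%) all 3 libraries at 250 nM lay above all 3 at 100 nM, against 16.5% of all genes, and in 2 members (2.6%) all lay below, against 19.3%. By subunit, 19 of 46 large subunit and 13 of 31 small subunit members rose, with medians of 0.54 and 0.64.

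On plastic the same dose comparison called 7 members higher and 0 lower (9.09% of members; 4.04% of all genes were called higher, 4.48% lower and 8.52% in either direction). The median was 0.16 against -0.03 over all genes, and 16 members (20.8%) had all 250 nM libraries above all 100 nM libraries, near the 16.4% of all genes, while 7 (9.09%) had all below, against 19.3%. All 7 were among the 32 called on the gel, of which they are 21.9%. The plastic and gel comparisons share no library, but they share an estimate of the spread. Across members the dose changes on plastic and on gel had r = 0.61 (77 genes, which are not independent), and across all genes r = 0.62.

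**Figure D2:**
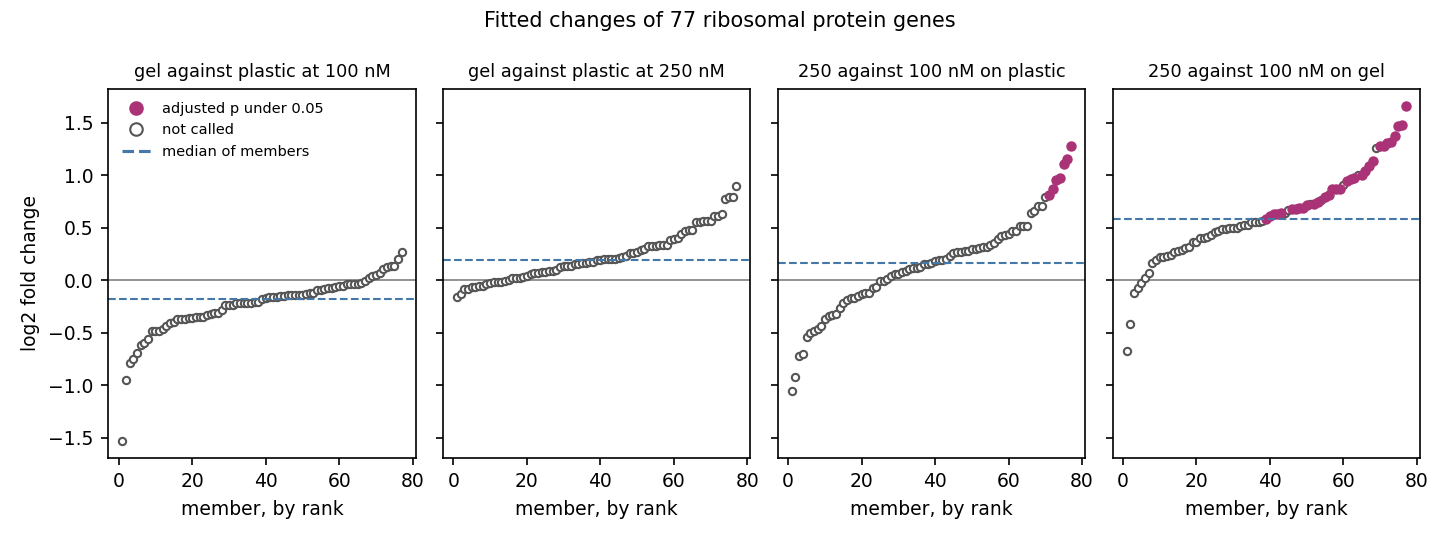
Fitted log2 fold change (vertical axis) of the 77 members, ranked within each of 4 comparisons (horizontal axis); filled points passed an adjusted p of 0.05 and the dashed line is the median of members. The called members are 0 and 0 for gel against plastic at 100 and 250 nM, 7 for dose on plastic and 32 for dose on gel.

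RPS4X, the X-linked form of a small subunit protein that escapes X inactivation, had 195, 251 and 225 CPM on plastic and 218, 220 and 228 CPM on gel at 100 nM, against 431, 621 and 573 CPM and 634, 500 and 522 CPM at 250 nM. Every 250 nM library was above every 100 nM library on both substrates. The log2 fold change was 1.28 ± 0.19 (SE) on plastic (edgeR adjusted p = 0.00429) and 1.31 ± 0.19 on gel (adjusted p = 0.00358).

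RPL35, at the rim of the tunnel exit where the signal recognition particle docks, had 202, 224 and 199 CPM on plastic and 221, 218 and 205 CPM on gel at 100 nM. At 250 nM it had 404, 484 and 497 CPM on plastic and 678, 473 and 519 CPM on gel. The doses did not overlap, and the changes were 1.15 ± 0.18 (edgeR adjusted p = 0.00509) and 1.37 ± 0.18 (adjusted p = 0.00244). RPS4X and RPL35 were the only members called on plastic in each of the 26 settings tried.

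RPL26, its neighbour at the tunnel exit, which also binds p53 messenger RNA, had 647, 559 and 387 CPM on plastic at 100 nM and 827, 1353 and 1271 CPM at 250 nM. On gel it went from 409, 491 and 479 CPM to 1284, 1267 and 1296 CPM, so the doses did not overlap on either substrate. The changes were 1.11 ± 0.23 on plastic (edgeR adjusted p = 0.0123) and 1.48 ± 0.23 on gel (adjusted p = 0.00397).

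RPS27A, made as a fusion with ubiquitin that is cleaved to release the head protein, showed the largest change on gel. Its levels on gel were 1133, 1384 and 1468 CPM at 100 nM and 5572, 3690 and 3345 CPM at 250 nM, and on plastic 1943, 1865 and 1343 CPM against 2578, 3857 and 3551 CPM. The changes were 1.66 ± 0.25 (edgeR adjusted p = 0.00364) and 0.95 ± 0.24 (adjusted p = 0.0295), and the value on gel was 1.38 without gel 250 nM replicate 1.

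RPL9 went from 1152, 1315 and 1001 CPM to 1734, 2352 and 2253 CPM on plastic and from 845, 1079 and 1061 CPM to 2742, 2365 and 2150 CPM on gel. RPL13A, a large subunit protein that also takes part in an interferon-gamma translation silencing complex, went from 812, 1032 and 890 CPM to 1370, 1733 and 1698 CPM on plastic and from 898, 863 and 878 CPM to 2273, 1648 and 1706 CPM on gel. RPS3A, at the small subunit platform, went from 426, 601 and 474 CPM to 793, 1128 and 1019 CPM on plastic. On gel RPS3A went from 390, 478 and 475 CPM to 585, 1049 and 1046 CPM, with the lowest 250 nM value in the library that stood apart. None of the 3 genes overlapped between doses on either substrate. Fitted changes on plastic and gel were 0.87 and 1.28 for RPL9, 0.81 and 1.09 for RPL13A, and 0.97 and 1.00 for RPS3A. RPL13A and RPS3A were no longer called on plastic without plastic 100 nM replicate 1.

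**Figure D3:**
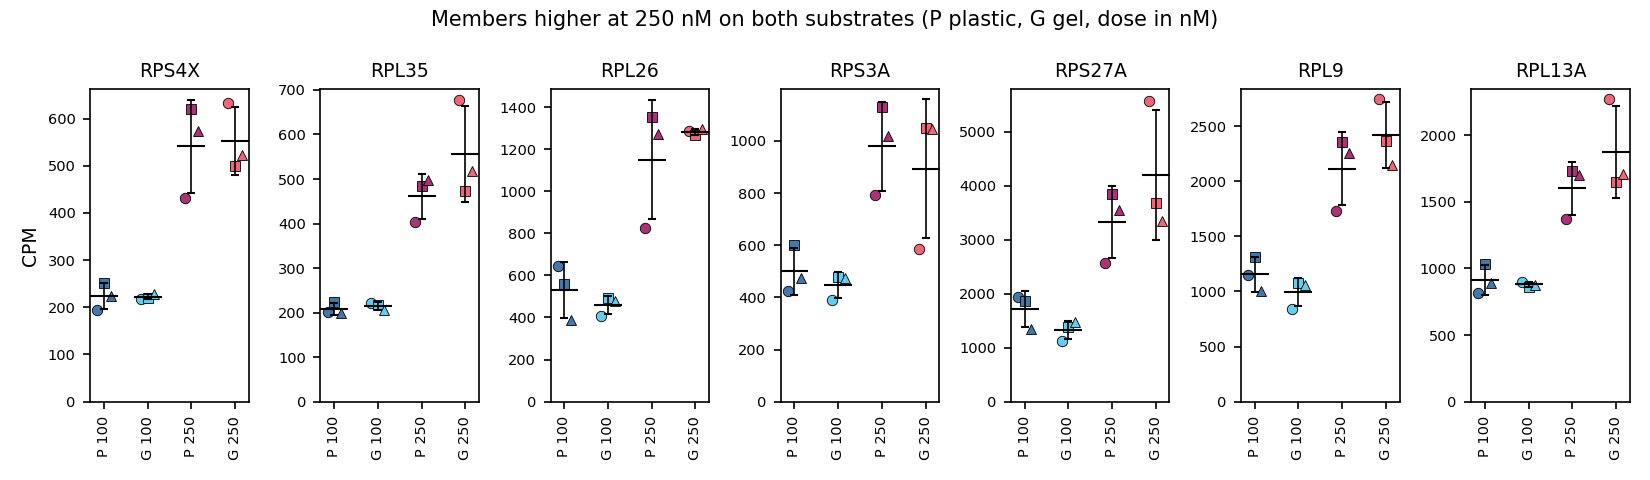
Level in CPM (vertical axes, starting at 0) of the 7 members called higher at 250 nM on both substrates, by group (P plastic, G gel, dose in nM on the horizontal axes); points are libraries with symbols for replicate number, bars the mean and SD of 3. In every gene all libraries at 250 nM lie above all libraries at 100 nM on the same substrate.

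Members called on gel alone included RPS12, with 1078, 1087 and 1101 CPM at 100 nM and 4636, 2219 and 2165 CPM at 250 nM. Its change was 1.47 ± 0.28 (edgeR adjusted p = 0.00735), and 0.98 without gel 250 nM replicate 1 (adjusted p = 0.0104). RPL36, a small eukaryote-specific protein of the large subunit, went from 226, 237 and 222 CPM to 797, 404 and 509 CPM (1.32 ± 0.31, adjusted p = 0.0164, and 0.98 without that library). On plastic RPS12 had a value of 0.71 and RPL36 one of 0.34, neither called. That a member was called on gel and not on plastic does not show a difference: the test of the difference called 0 members.

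Removing gel 250 nM replicate 1 left 21 members higher on gel, 20 of them among the 32. Leaving out both libraries that stood apart, an alternative added after the data were seen, left 30, of which 29 were among the 32. All genes called on gel were 9.48% and 14.4% in these fits, against 13.8% in the main fit. On plastic the count was 16 (12 higher, 4 lower) without gel 250 nM replicate 1 and 17 (14 higher, 3 lower) without both. All genes called on plastic were 16.1% and 16.7% in these fits, against 8.52% in the main fit. The larger counts of members thus came with more calls over all genes. Without plastic 100 nM replicate 1 the plastic count was 6, with 5 of them among the 7, when 5.4% of all genes were called. Gel 250 nM replicate 1 is in neither group compared on plastic. It enters there through the filter, the scaling and the estimate of the spread, and without it 13675 genes were tested. Single libraries moved the counts too: on plastic 2 were called without plastic 250 nM replicate 2 or 3 and 4 without plastic 100 nM replicate 3. All genes called on plastic were 0.688%, 0.737% and 5.9% in these fits. On gel 10, 18 and 15 were called without gel 100 nM replicates 1, 2 and 3, when 5.84%, 6.8% and 8.76% of all genes were called. There were 20 without plastic 250 nM replicate 2 or 3 (9.14% and 9.07% of all genes called). Without gel 250 nM replicate 3 there were 21 (9.01% of all genes called).

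Both members of the 5S complex rose on gel. RPL11 had 344, 397 and 399 CPM at 100 nM and 665, 726 and 699 CPM at 250 nM (0.87 ± 0.20, edgeR adjusted p = 0.0157). RPL5 had 585, 613 and 592 CPM and 870, 991 and 1085 CPM (0.72 ± 0.22, adjusted p = 0.0413). Their values on plastic were 0.64 and 0.71 and did not pass (adjusted p = 0.0626 and 0.0575), although the doses did not overlap for either gene. RPL5 passed on gel in 14 of 26 settings and RPL11 in 25.

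The stalk, which recruits elongation factors, had 1 of 4 genes higher on gel and 0 on plastic. RPLP0, its base, went from 821, 908 and 807 CPM to 1645, 1185 and 1262 CPM on gel (0.69 ± 0.18, edgeR adjusted p = 0.0268, and adjusted p = 0.0701 without gel 250 nM replicate 1). RPLP1 had values of -0.37 on plastic and 0.16 on gel, RPLP2 -0.19 and 0.53, and RPL12 0.52 and 0.53, none called. The RPL12 values were 0.31 on plastic without plastic 100 nM replicate 1 and 0.35 on gel without gel 250 nM replicate 1. The tunnel exit rim had 3 of 8 genes higher on gel and 2 on plastic, and the small subunit head 7 of 14 and 1.

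Among other members, RPSA, the laminin-receptor-related protein of the small subunit, went from 219, 249 and 221 CPM to 329, 360 and 377 CPM on gel (0.63 ± 0.16, edgeR adjusted p = 0.0228). RPS27, a zinc-finger protein of the small subunit, was at the edge of the threshold on gel (1.04 ± 0.33, adjusted p = 0.0499) and had 0.62 with adjusted p = 0.195 without gel 250 nM replicate 1. RPL29 (0.81, adjusted p = 0.0437) likewise had 0.49 with adjusted p = 0.16 without it. RPS6, the substrate of S6 kinase, had 0.44 on plastic (0.24 without plastic 100 nM replicate 1) and 0.22 on gel and was not called. RPL3, at the peptidyl transferase centre, had 0.43 and 0.46, RPL22, which binds small structured RNAs, 0.12 and 0.41, RPL39, at the tunnel exit, 0.01 and 0.76, RPL41, a very short protein, -0.15 and 0.50, and RPS26 -0.17 and 0.55 (0.35 without gel 250 nM replicate 1), and none of these was called.

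RPL23A, a tunnel-exit protein that binds nascent-chain factors, had the lowest dose value on gel. It had 591, 627 and 479 CPM on plastic and 627, 507 and 506 CPM on gel at 100 nM, against 354, 325 and 365 CPM and 255, 449 and 325 CPM at 250 nM. All 250 nM libraries were below all 100 nM libraries on each substrate. The values of -0.70 ± 0.21 on plastic (edgeR adjusted p = 0.0579) and -0.67 ± 0.21 on gel (adjusted p = 0.0512) did not pass, and each passed in 8 of 26 settings. RPL38, singled out after its values were seen, was the only other member that was lower without overlap on gel, and was so on plastic as well.

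Substrate gave no called member at either dose. At 100 nM gel against plastic had 0 of 77 members called, against 0.227% of all genes. At an unadjusted p under 0.05 there were 10 members (13%), against 9.9% of all genes. The members had a median of -0.18 against -0.01 over all genes, and 67 negative values. At 250 nM it had 0 called (0.00811% of all genes) and 11 (14.3%) at an unadjusted p under 0.05, against 10% of all genes, with a median of 0.19 against -0.02 and 62 positive values. That median was 0.10 without gel 250 nM replicate 1, 0.06 with 46 positive values without plastic 250 nM replicate 1, and 0.05 with limma-voom. At 100 nM it ran from -0.12 without plastic 100 nM replicate 1 to -0.29 without plastic 100 nM replicate 3. Over both doses 0 were called (0.754% of all genes), 2 (2.6%) had an unadjusted p under 0.05, below the 12.5% of all genes, and the median was 0.00. DESeq2 called 1, 2 and 0 members in these comparisons, and limma-voom 0, 4 and 0. All genes called were 1.36%, 0.836% and 3.13% with DESeq2, and 3.63%, 1.31% and 6.5% with limma-voom.

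Without overlap between groups, 8 members were lower and 0 higher on gel at 100 nM (9.38% and 9.62% of all genes), so the 10.4% of members that were lower is near the background. At 250 nM 17 members (22.1%) were higher and 0 lower on gel (7.45% and 7.62% of all genes), among them RPLP0, RPLP1 and RPLP2. RPLP2 had 554, 542 and 604 CPM on plastic and 945, 764 and 799 CPM on gel (0.56 ± 0.17, edgeR adjusted p = 0.298). In all, 54 members had a negative value at 100 nM and a positive one at 250 nM, 13 were negative at both, 8 positive at both and 2 the reverse.

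The difference of the substrate effect between doses was positive for 70 members, with a median of 0.44 against -0.02 over all genes. It was called for 0 members (0% of all genes), with 16 members (20.8%) and 6.32% of all genes at an unadjusted p under 0.05, and DESeq2 called 0. The median was 0.31 without gel 250 nM replicate 1, 0.34 without plastic 100 nM replicate 1 and 0.27 without both. The mitochondrial and ribosomal DNA-like shares that set them apart are given above, and their part in the difference was not tested.

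RPS29, a small zinc-binding head protein, had the lowest substrate value at 100 nM. It had 2952, 1027 and 650 CPM on plastic and 401, 661 and 543 CPM on gel, so the groups overlapped and a single plastic library was far above the rest. The value was -1.53 ± 0.44 (edgeR adjusted p = 0.245) and -0.64 (adjusted p = 0.761) without that library. At 250 nM RPS9, a small subunit body protein, had the highest value, from 99.3, 107 and 96.2 CPM on plastic to 368, 90.9 and 105 CPM on gel. Its value was 0.90 ± 0.43 (adjusted p = 0.505) and -0.06 (adjusted p = 0.984) without gel 250 nM replicate 1, so 1 library set its size and sign.

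RPL29, a large subunit protein, had 104, 89.7 and 114 CPM on plastic and 241, 137 and 152 CPM on gel at 250 nM, with no overlap (0.79 ± 0.25, edgeR adjusted p = 0.307, and 0.48 without gel 250 nM replicate 1). The lowest values at 250 nM were -0.16 for RPL4, -0.13 for RPS3A and -0.08 for RPS6, and without gel 250 nM replicate 1 these were 0.07, 0.08 and -0.01. At 100 nM RPL30 had -0.95 and RPS27 -0.79, and the highest values were 0.27 for RPL6, 0.20 for RPL12 and 0.14 for RPL14. Without plastic 100 nM replicate 1 these became -0.47, -0.29, 0.07, -0.02 and -0.09. Signs of RPL4, RPS3A, RPL12 and RPL14 thus turned with a single library. None of these passed the test.

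**Figure D4:**
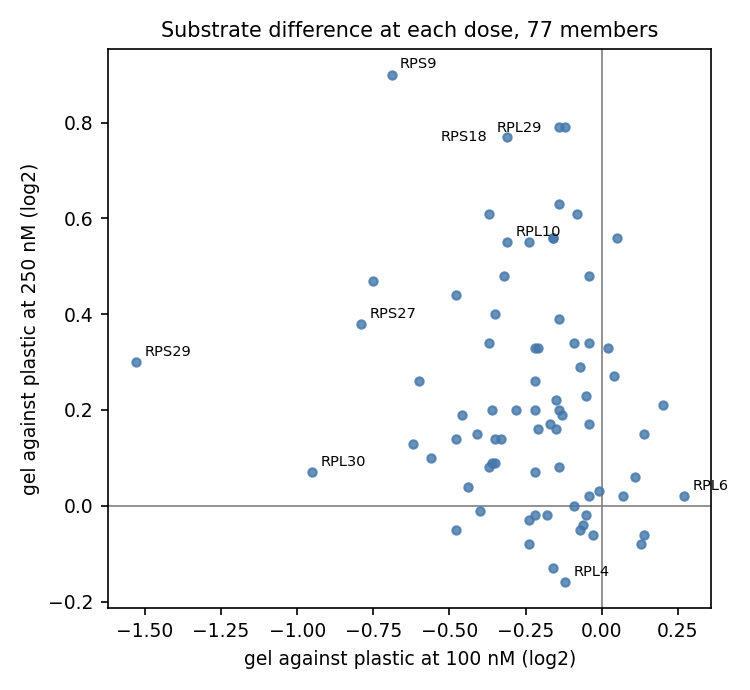
Log2 fold change of gel against plastic at 100 nM (horizontal axis) and at 250 nM (vertical axis) for the 77 members, each point a gene, with 9 genes labelled. The 54 points in the upper left are negative at 100 nM and positive at 250 nM; RPS29 lies far left and RPS9 at the top, each with a single library far above the rest of its group.

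The levels of most members moved together across libraries. The log2 level of a member correlated with the median of the members at r = 0.77 as the median over members, from -0.64 for RPL23A to 0.97 for RPL37. This is a description over 12 libraries, since members share each library's scaling and themselves form that median. Between pairs of members the median r was 0.56. Among 10854 other protein-coding genes, those most like the members' median were COX6A1 (r = 0.984), COPS9 (0.980), ATP5PF (0.970), FAU (0.966) and NDUFB2 (0.965), and without the libraries that stood apart r was 0.957 to 0.981 for them. COX6A1, ATP5PF and NDUFB2 encode subunits of the respiratory chain and ATP synthase, and COPS9 a subunit of the COP9 signalosome. FAU is itself a ribosomal protein gene outside the symbol rule. COX6A1 and COPS9 followed the median more closely than any member did, so this shared movement was not particular to the members.

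Members differed in how far their level varied relative to the median member of the same library. RPS10 and RPL7A varied least, with SDs over 12 libraries of 0.10 and 0.102 on the log2 scale. RPL23A (0.626), RPS29 (0.615), RPL30 (0.608) and RPS9 (0.537) varied most. Without the libraries that stood apart these became 0.559, 0.248, 0.463 and 0.231, so RPL23A kept most of its spread and RPS29 and RPS9 lost more than they kept. RPL23A lay at 0.13 ± 0.06 and 0.28 ± 0.32 on plastic and gel at 100 nM and at -0.75 ± 0.20 and -1.01 ± 0.44 at 250 nM (SD, n = 3).

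In plastic 100 nM replicate 1, RPS29 had 22216 expected counts against 6657 and 4124 in the other replicates. RPL30, a large subunit protein, had 1098 CPM there against 642 and 363 CPM. Both have short transcripts, with effective lengths of 251 and 311 bases where members run from 251 to 1392. Over the 77 members, deviation from the gene's mean and log2 transcript length had r = -0.44 in that library and between -0.14 and 0.26 in the other 11. An alternative added after the data were seen removed from each library the trend of level with length, fitted over all genes tested. The substrate value at 100 nM was then -1.43 for RPS29 and -0.87 for RPL30. Substrate values of members at 100 nM still had r = 0.39 with log2 transcript length, against 0.41 before. That alternative thus left the members' own trend with length nearly unchanged, so these values are not free of it.

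**Figure D5:**
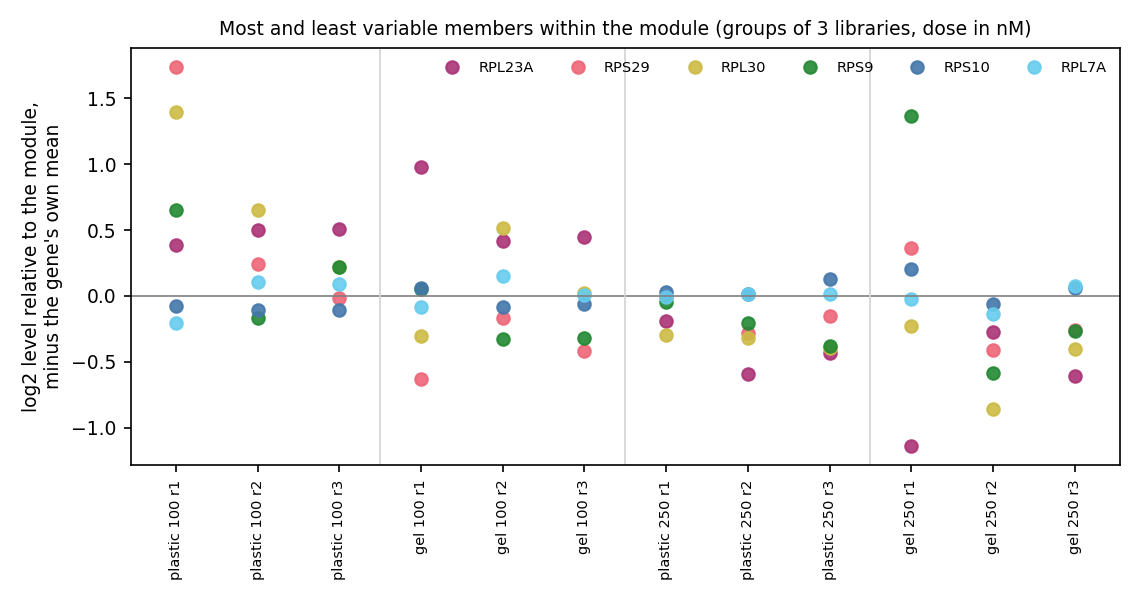
Log2 level relative to the median member of the same library, minus the gene's own mean (vertical axis), for the 4 most variable and 2 least variable members in the 12 libraries (horizontal axis, substrate, dose in nM and replicate). RPS29 and RPL30 are high in plastic 100 nM replicate 1, RPS9 in gel 250 nM replicate 1, and RPL23A is lower in all libraries at 250 nM.

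Members share sequence with processed pseudogenes, and 1587 annotated pseudogenes carry a member's name. RSEM divides reads that fit several copies, and 53 members had a count over 0.005 from a whole number in every library, so the levels of genes with abundant copies are uncertain. In 40 families pseudogenes held under 1% of the family's counts on average, and in 13 over 10%. The largest shares were in RPS23 (37.2%), RPS27 (36.6%), RPL10 (32.5%) and RPL6 (25.7%). For RPS27 the share was 29.8% and 31.9% on plastic and gel at 100 nM and 43.9% and 40.8% at 250 nM. Summing pseudogenes with their parents moved the dose value on plastic from 0.28 to 0.60 for RPL6, from -0.50 to -0.17 for RPL10 and from -0.13 to 0.23 for RPS27, none called either way. Without plastic 100 nM replicate 1 the RPS27 value was 0.37. The counts were 8 on plastic (7 higher, 1 lower) and 32 on gel. Of the 7 members called on both substrates, RPL13A had 16.6% and RPS27A 10.9% in pseudogenes.

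The start sequence and the dose values were set side by side as a description. On gel 20 of 46 members with the C start rose, with a median of 0.66, 5 of 16 matched members without it, with a median of 0.50, and 7 of 15 members not in the RefSeq table, with a median of 0.43. On plastic the numbers were 5, 2 and 0, with medians of 0.18, 0.16 and 0.15.

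Other genes of the pathway are given by list, with calls in both directions, against 13.8% of all genes called on gel and 8.52% on plastic. FAU rose on gel (0.73 ± 0.20, edgeR adjusted p = 0.0284, and adjusted p = 0.072 without gel 250 nM replicate 1) and RACK1 did not pass. Of 6 paralogs tested, RPL36AL rose on gel (1.00) and RPL7L1 on plastic (0.69). Neither passed by edgeR without the library of that comparison that stood apart (adjusted p = 0.0674 and 0.0775). Without both libraries that stood apart 2 paralogs rose and 1 fell on gel, and 1 rose and 2 fell on plastic. RPS27L, a p53-induced paralog of RPS27, had -0.53 and -0.55 on plastic and gel and was not called in the main fit.

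Among 16 translation factors known to have TOP messenger RNAs, 7 rose and 2 fell on gel, and 5 rose and 1 fell on plastic; without both libraries that stood apart these counts were 8 and 2, and 5 and 3. EEF1D (1.33 on plastic, 1.52 on gel), EEF1G (0.92 and 1.25), EEF2 (0.86 and 0.80), which moves the ribosome along the message, EIF3L (1.10 and 1.14) and TPT1 (0.74 and 0.91) rose on both. TPT1 did not pass on plastic without plastic 100 nM replicate 1 (edgeR adjusted p = 0.0963). PABPC1, the poly(A)-binding protein, fell on gel (-1.32), and EEF1A1, which delivers aminoacyl-tRNA, fell on plastic (-1.13). Of 45 ribosome biogenesis factors 3 rose and 2 fell on gel and 1 rose on plastic, shares of 11.1% and 2.22% that are below those of all genes. Without both libraries that stood apart 5 rose and 2 fell on each substrate. All genes called were then 14.4% on gel and 16.7% on plastic, so the share on gel was no longer below. FBL, the box C/D methyltransferase, rose on both (0.76 and 0.98), with adjusted p = 0.0612 by edgeR on plastic without plastic 100 nM replicate 1. Of 11 RNA polymerase I genes 2 fell on gel, and 2 rose and 1 fell on plastic. Without plastic 100 nM replicate 1, 0 of them rose and 1 fell on plastic. Without gel 250 nM replicate 1, 1 fell on gel. Leaving out both libraries gave the same counts as the main fit. Of 11 snoRNA host transcripts 3 rose on gel (SNHG6, SNHG8 and SNHG12). Of 8 dedicated chaperones 1, BCCIP, fell on gel (-1.44). Of 12 regulators of TOP messenger RNAs and ribosome genes 1 rose and 1 fell on gel and 1 fell on plastic. MYC, a transcriptional activator of ribosome genes, had 38.9, 11.4 and 13.1 CPM on plastic and 8.13, 21.5 and 17.3 CPM on gel at 100 nM, against 2.47, 3.74 and 6.26 CPM and 3.62, 5.32 and 5.03 CPM at 250 nM. It fell on both (-2.33 on plastic, -1.77 on gel), with no overlap, but did not pass by edgeR on plastic without plastic 100 nM replicate 1 (-1.54, adjusted p = 0.0698) or on gel without gel 250 nM replicate 1 (-1.63, adjusted p = 0.121). RPS6KB2, a kinase of RPS6, rose on gel, from 0, 1.78 and 0 CPM to 72.1, 25.6 and 22.2 CPM (edgeR adjusted p = 0.00528), and had 9.57, 1.39 and 0.788 CPM on plastic at 100 nM and 26, 26.2 and 22.7 CPM at 250 nM. No gene of these lists was called for substrate.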

How the data were processed

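RNA sequencing of IMR90 fibroblasts gave 12 gene tables. Trimmomatic, STAR, RSEM and DESeq2 1.36.0 were used with GRCh38, per the submitters' processing notes; no other version, annotation release or strand setting is named there, so antisense and overlapping genes cannot be separated. The authors deposited RSEM expected counts per gene. The authors also deposited TPM, which RSEM scales for transcript length and library total. FPKM values, also deposited by the authors, were not used, and the deposited effective length (another column, per the file headers) served only for the length trend.

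Expected counts were rounded and analysed with edgeR 4.0.16 in R 4.3.3: filterByExpr (12329 genes), TMM, quasi-likelihood with 4 group means (8 residual degrees of freedom, common biological coefficient of variation 0.299) and Benjamini-Hochberg adjustment within a comparison over all genes, called under 0.05. CPM used the effective library size. Biotypes and coordinates came from GENCODE 29 and start sequences from RefSeq, which matched 62 of 77 members. The fit was run on simulated data that held no library that stood apart and no difference in counting between doses, so it does not cover these. Members named were those called (the 6 largest where over 12), a fixed set of roles, the extremes of level, variability and substrate value, and called genes of the other lists. The members and lists were chosen with earlier results of these data known. Alternatives were other scalings and tests, no filter, TPM with a pseudocount of 1, a replicate block, pseudogenes summed, and each library left out. Some values are not reported here.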

Additional observations from a re-analysis of the deposited data

Results flagged for a closer look

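RPL10, a large subunit protein that joins late in assembly, had opposite substrate directions at the 2 doses. It shared this with most members, since 54 had a negative value at 100 nM and a positive one at 250 nM. In CPM every gel library of RPL10 was below every plastic library at 100 nM and above at 250 nM, but narrowly. RPL10 had 381, 311 and 266 CPM on plastic and 265, 256 and 250 CPM on gel at 100 nM. At 250 nM it had 249, 193 and 237 CPM on plastic and 434, 249 and 308 CPM on gel. The nearest gel and plastic libraries were nearly equal at each dose. In TPM the groups overlapped at 250 nM, with 395, 284 and 325 on plastic and 658, 327 and 431 on gel. The values were -0.31 and 0.55 on the log2 scale, a difference of 0.86 ± 0.31 (edgeR adjusted p = 0.75). The difference was 0.60 without gel 250 nM replicate 1 and 0.44 without both libraries that stood apart. Pseudogenes held 32.5% of the counts of this family.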

How the results depend on the processing

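Median changes of members kept their sign in all alternatives for both dose comparisons, both substrate comparisons and the difference. The median difference was 0.27 with limma-voom and 0.27 without both libraries that stood apart. Counts moved more. For gel against plastic at 100 nM, members called were 2 with no filter and 1 with DESeq2 (RPS29 in both, and RPL30 with no filter). At 250 nM they were 2 with DESeq2 and 4 with limma-voom. With no filter 1 was called over both doses and 2 for the difference. All genes called with no filter were 1.16% at 100 nM, 1.99% over both doses and 0.448% for the difference. For dose on plastic they were 11 with no filter, 16 with DESeq2, 29 with limma-voom, 17 without both libraries and 11 with the length trend removed, and 2 to 16 leaving out each library. For dose on gel they were 49 with limma-voom and 16 with only the groups compared, and 10 to 39 leaving out each library. Fitting only the groups compared gives no value over both doses or for the difference. Calls over all genes moved too: on plastic 13.5% with DESeq2, 25.7% with limma-voom and 16.7% without both libraries, against 8.52%, and on gel 23.7% with limma-voom and 4.71% with only the groups compared, against 13.8%. On plastic they were also 5.04% with no filter and 9.18% with the length trend removed. Leaving out each library, they ran from 0.688% to 16.1% on plastic and from 5.84% to 15.9% on gel. The cause was not tested.

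Same-number pairs of libraries correlated at -0.236 to 0.323 (median 0.071), with 8 of 18 over 0.1. Different-number pairs correlated at -0.301 to 0.39 (median -0.052), with 9 of 36 over 0.1. The ranges overlap, so these values do not settle whether replicate numbers pair the libraries. With a replicate block 10 members were called on plastic, 31 on gel and 0 for substrate.

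Shares of all counts were 5.04%, 3.91%, 5.58% and 6.7% (plastic and gel at 100 nM, then at 250 nM). Shares of TPM were 10.8%, 8.34%, 12.2% and 13.9%, and with pseudogenes gel at 100 nM was 6.72%. Without gel 250 nM replicate 1 the gel 250 nM means were 5.74% of all counts and 12.3% of TPM (n = 2). By both measures gel and plastic overlapped at 250 nM. Gel ran from 5.64% to 8.62% of all counts and 11.98% to 16.98% of TPM, and plastic from 5.08% to 5.9% and 11.14% to 12.91%.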
